A study of Mus musculus with 6 samples.

Results

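The genes described here are 58 genes of mitosis, the kinetochore and the spindle, named by symbol, in mouse medulloblastomas, tumours of the cerebellum. Of these, 57 were measured among 22180 genes in all. The remaining one, the condensin gene Ncapg, is represented only by an array feature that also carries the symbol Lcorl, so it was not analysed here. Sgol1 was matched through its current symbol Sgo1. Gene expression was measured in 6 tumours on Affymetrix whole-transcript arrays, 3 with Crebbp knocked out (Math1Cre::CrebbpFl/FlSmoM2Fl/+) and 3 with wild type Crebbp (Math1Cre::SmoM2Fl/+), with 1 array per tumour. Crebbp encodes a histone acetyltransferase. Animals of both groups carried the SmoM2 allele, an active form of the Sonic hedgehog transducer Smoothened, and were given 1 mg tamoxifen at postnatal day 5. Tumours were collected at postnatal day 60 from animals with clear tumour growth; the age label reads postnatal day 5, taken as the day of induction. The recombinase, active once tamoxifen is given, is driven by Math1 (Atoh1), a gene of granule neuron progenitors, so Crebbp is deleted in that lineage and stromal cells of the tumour keep it. Whether tumours of 1 group shared a litter is not in the labels, so p-values reflect the spread among these 6 samples, which may be partly technical.

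Mitosis is driven by cyclin-dependent kinase 1, whose activation leads to chromosome condensation, spindle assembly and the attachment of kinetochores to microtubules. The spindle checkpoint holds the anaphase-promoting complex inactive until all kinetochores are attached, after which securin and cyclin B are degraded, sister chromatids part and the cell divides. The genes of this programme are transcribed together late in the cell cycle by the MuvB complex with MYBL2 and FOXM1, through a promoter element called the cell cycle genes homology region, often with NF-Y bound to CCAAT boxes nearby. In the developing cerebellum they are expressed in granule neuron progenitors, which divide in response to Sonic hedgehog and from which these tumours arise.

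The promoters of the member genes are shown first because many of them share this element. RefSeq promoter windows (GRCm38.p6), running from 250 bases before to 50 bases after the annotated start, were matched for 49 of the 57 measured genes. The others, among them Foxm1, Incenp, Aurkb, Cdc25c and Kif20a, had no window here, so whether they hold the elements was not examined. The cell cycle genes homology region was searched as TTTGAA and as its variant TTCGAA, on either strand, and was found in 36 of the 49 genes (73.5%), against 21.7% of all 27025 genes with a window. CCAAT, likewise on either strand, was found in 36 of 49 (73.5%), against 41.1% of all genes, and 31 of 49 held both (63.3%), against 9.65% of all genes. Of 39 DNA replication and S phase genes with a window, 23.1% held the homology region and 61.5% held CCAAT. A match is a description of the letters and not of binding. The promoters printed here belong to the 6 member genes with the smallest p-values in the tumour comparison among those with a homology region match. They run from 220 bases before the start to 30 bases after it, 5′ to 3′ along the gene, and capitals mark the matches to both elements on either strand.
Mki67: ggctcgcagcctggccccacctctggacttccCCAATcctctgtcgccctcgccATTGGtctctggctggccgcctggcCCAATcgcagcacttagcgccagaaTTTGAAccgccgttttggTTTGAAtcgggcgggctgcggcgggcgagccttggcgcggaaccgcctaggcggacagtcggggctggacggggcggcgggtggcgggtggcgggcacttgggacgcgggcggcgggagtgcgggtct
Cdk1: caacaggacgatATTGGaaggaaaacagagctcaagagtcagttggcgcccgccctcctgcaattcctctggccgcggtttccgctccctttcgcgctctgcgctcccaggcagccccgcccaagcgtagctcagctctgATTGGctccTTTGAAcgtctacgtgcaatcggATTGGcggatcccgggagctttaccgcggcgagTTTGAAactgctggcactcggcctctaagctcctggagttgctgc
Cenpf: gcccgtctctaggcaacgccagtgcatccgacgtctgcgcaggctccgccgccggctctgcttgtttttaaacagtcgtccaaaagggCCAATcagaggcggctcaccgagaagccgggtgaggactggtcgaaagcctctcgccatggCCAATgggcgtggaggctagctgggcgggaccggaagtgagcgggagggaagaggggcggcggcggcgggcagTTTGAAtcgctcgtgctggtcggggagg
Cdca8: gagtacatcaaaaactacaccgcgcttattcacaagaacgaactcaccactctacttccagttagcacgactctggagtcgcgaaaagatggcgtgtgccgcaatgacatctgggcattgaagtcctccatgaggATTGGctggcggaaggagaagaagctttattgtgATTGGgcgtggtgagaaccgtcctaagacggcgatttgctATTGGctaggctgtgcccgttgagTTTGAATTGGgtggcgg
Ncapd2: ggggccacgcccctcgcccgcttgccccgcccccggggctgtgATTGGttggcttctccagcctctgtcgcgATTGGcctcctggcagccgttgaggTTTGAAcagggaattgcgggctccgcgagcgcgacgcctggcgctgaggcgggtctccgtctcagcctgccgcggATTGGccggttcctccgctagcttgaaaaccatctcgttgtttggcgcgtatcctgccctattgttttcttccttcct
Aspm: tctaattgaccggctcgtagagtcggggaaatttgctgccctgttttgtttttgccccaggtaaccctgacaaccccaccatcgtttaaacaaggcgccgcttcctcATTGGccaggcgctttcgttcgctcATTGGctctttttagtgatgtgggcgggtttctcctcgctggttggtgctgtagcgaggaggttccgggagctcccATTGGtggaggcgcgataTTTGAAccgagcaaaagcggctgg
The windows lie at chr7:135716350-135716599 (minus strand) for Mki67, chr10:69352883-69353132 (minus strand) for Cdk1, chr1:189688057-189688306 (minus strand) for Cenpf, chr4:124936888-124937137 (minus strand) for Cdca8, chr6:125191557-125191806 (minus strand) for Ncapd2 and chr1:139454553-139454802 (plus strand) for Aspm. Mki67 held 2 homology region matches, at -116 and -98 relative to the start, and Cdk1 held 2, at -71 and -15. Cenpf, Cdca8 and Aspm held 1 each just past the start, at 3, 14 and 7, and Ncapd2 held 1 at -123. In Cdca8 the homology region at 14 shares a base with a CCAAT match at 19. Over all windows of the members the homology region had a median position of -15 and the CCAAT box one of -65, and 36 of 53 homology region matches lay within 50 bases of the start.

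**Figure D1:**
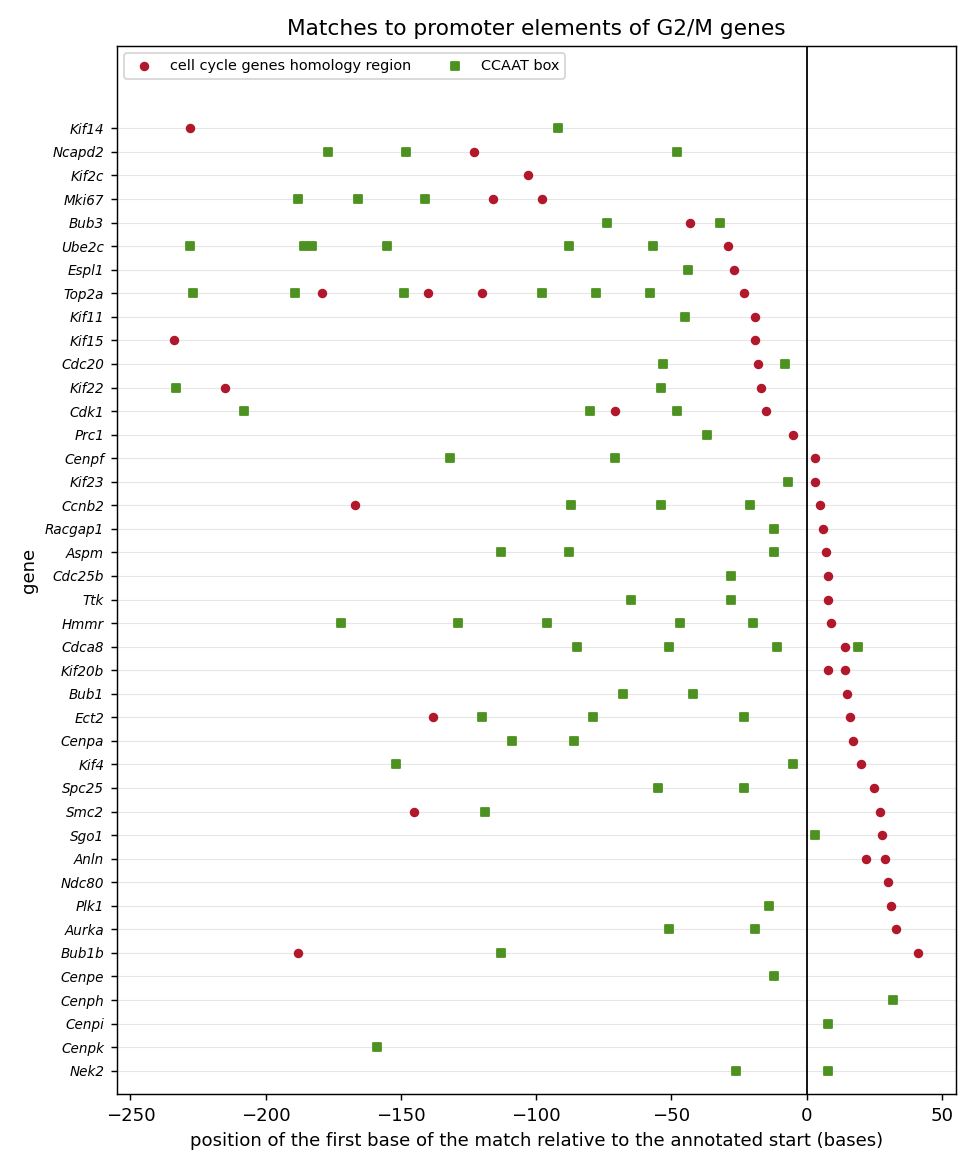
Positions of matches in the promoters of the 41 member genes with at least 1 match, 1 window per gene. The horizontal axis is the position of the match's first base relative to the annotated start in bases, red circles are the cell cycle genes homology region and green squares the CCAAT box. Most red circles sit close to the start and most green squares upstream of it, with medians of -15 and -65 over all windows.

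The tumours were compared on log2 RMA levels, and each difference given is the knockout mean minus the wild type mean of these levels. The targeted gene was checked first. Crebbp had log2 levels of 11.24, 11.34 and 11.20 in knockout tumours, against 11.80, 11.76 and 11.70 in wild type tumours, and the groups did not overlap. The difference was -0.50 (SE 0.09, limma adjusted p = 0.0948), and the threshold of an adjusted p of 0.05 over all genes was not passed. The labels do not give the deleted exons, so the probes may lie partly outside the deletion. Xist had log2 levels of 12.34 ± 0.10 in knockout tumours and 5.44 ± 0.31 in wild type tumours (SD, n = 3 each), and the Y-linked Kdm5d had levels of 4.70 ± 0.09 in knockout tumours and 9.34 ± 0.02 in wild type tumours (SD, n = 3 each). All 3 knockout tumours thus had the female pattern and all 3 wild type tumours the male one, so a difference by genotype cannot be told apart from one by sex. All 15 granule neuron progenitor genes had a mean log2 level of at least 9.35. The dimmest microglia, endothelial and fibroblast genes, at 6.498, 6.64 and 6.77, also lay above the 5.74 reached by Xist and Kdm5d in the arrays that lack them, so such levels do not by themselves show the labelled lineage. In bulk tissue, fewer dividing cells and less RNA per dividing cell cannot be told apart.

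All 57 mitotic genes gave log2 values between 8.02 and 12.37 on every array, where a sex-linked gene absent from a group read at most 5.74. Probes differ in brightness, so the levels of different genes are not ranked. In knockout tumours 56 of 57 had a negative log2 difference, against 49.1% of all genes and 49.9% of the brighter 50% of genes. The count was 52 when the arrays were quantile normalised again (50.5% of all genes) and 50 with array weights (48.7%). It was 57 when array medians were centred, a step that lowered the difference of every gene alike and left 59.1% of all genes negative. The median difference of the members was -0.16, a level 10.2% lower in knockout tumours, beside 0.00 over all genes. None of them passed the threshold in limma: 0 of 57 had an adjusted p under 0.05, against 0.207% of all genes in either direction and 0.0812% lower in knockout tumours. At an unadjusted p under 0.05, 7 members were lower (12.3%, against 6.51% of all genes and 8.84% of the brighter 50%). At that p 0 were higher (against 7.24% of all genes). In 10 members the highest knockout value was below the lowest wild type value (17.5%, against 9.43% of all genes and 12.9% of the brighter 50%). Members vary together from array to array, so their signs are not independent of each other.

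Single tumours set much of the size of these counts. Knockout replicate 3 had the lowest value of the 6 arrays in 49 of 57 members (86.0%), against 19.8% of all genes. Among the wild type tumours replicate 1 was the lowest in 45 of 57 members (78.9%), against 35.6% of all genes. The median deviation of the members from their own means was -0.04, 0.03 and -0.24 in knockout replicates 1 to 3, against -0.05, 0.11 and 0.17 in wild type replicates 1 to 3. Wild type replicate 1 thus lay at the level of knockout replicate 1 and below knockout replicate 2. Without knockout replicate 3 the median difference was -0.07 with 46 of 57 negative. In that fit 3 members were lower at an unadjusted p under 0.05 (5.26%, against 4.66% of all genes) and 10 did not overlap (17.5%, against 13.8%). Leaving out wild type replicate 2 likewise gave 3 lower members (5.26%, against 4.57%) and 12 without overlap (21.1%, against 12.7%). Leaving out wild type replicate 3 gave 4 lower members (7.02%, against 8.34%) and 12 without overlap (21.1%, against 17.4%), with 44 differences negative. In these 3 fits the share of members lower at that p was thus near or below that of all genes. Leaving out knockout replicate 1 gave 5 lower members (8.77%, against 4.86%) and 13 without overlap (22.8%, against 12.9%). Leaving out knockout replicate 2 gave a median of -0.22, 10 lower members (17.5%, against 6.22%) and 23 without overlap (40.4%, against 15.1%). Leaving out wild type replicate 1 gave a median of -0.22, 57 negative differences, 11 lower members (19.3%, against 5.33%) and 32 without overlap (56.1%, against 15.0%).

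**Figure D2:**
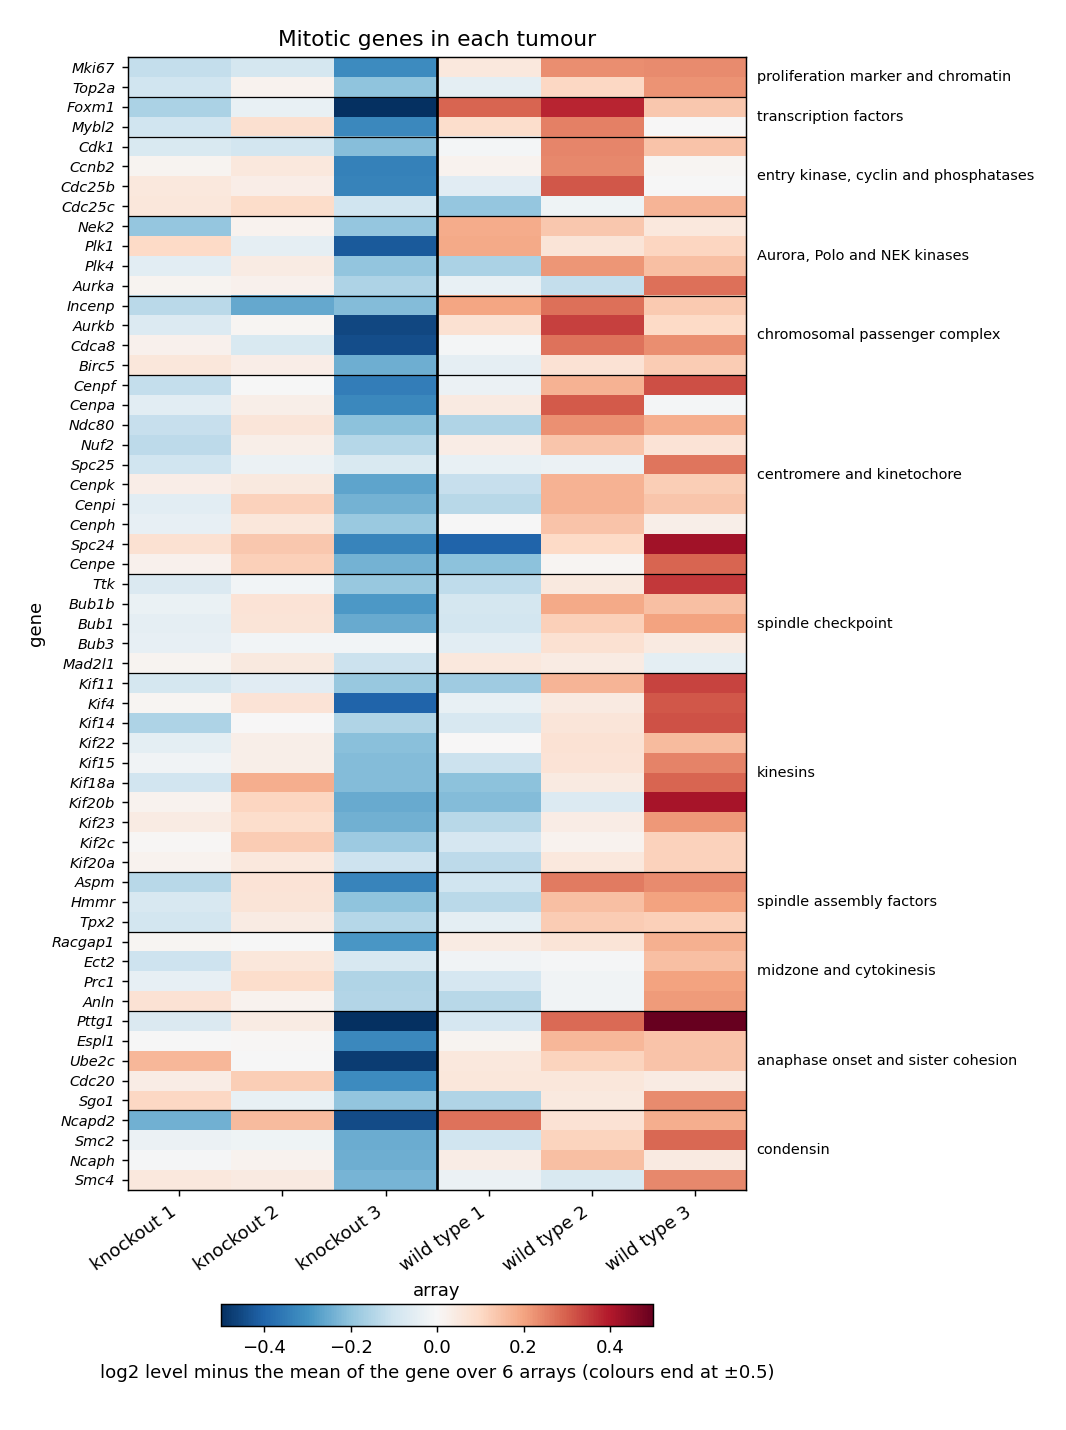
Log2 level of each of the 57 member genes in each of the 6 arrays, as the deviation from the gene's mean over the arrays. Rows are genes grouped by role, columns are arrays with knockout tumours on the left, blue is below and red above the gene's mean. Knockout replicate 3 is blue in nearly every row and was the lowest array in 49 of 57 genes, and wild type replicate 1 is paler or bluer than the other wild type tumours in most.

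Of the transcription factors of the programme and the chromatin proteins of dividing cells, Foxm1 and Mki67 had groups that did not overlap. The groups overlapped in Top2a and, on the array feature used, in Mybl2. Foxm1, which activates late cell cycle genes, had log2 levels of 9.35, 9.47 and 8.90 in knockout tumours, against 9.80, 9.89 and 9.64 in wild type tumours. The groups did not overlap, and knockout replicate 3 stood lowest. Its difference of -0.54 (SE 0.16, limma adjusted p = 0.221) was the most negative of all members, a level 31% lower in knockout tumours with a 95% interval of -0.90 to -0.17. Mki67, which encodes the chromosome surface protein Ki-67, had log2 levels of 12.01, 12.05 and 11.82 in knockout tumours, against 12.19, 12.37 and 12.37 in wild type tumours. The groups were separate here too, with a difference of -0.35 (SE 0.10, limma adjusted p = 0.231). The MuvB partner Mybl2 had levels of 8.88, 9.06 and 8.66 in knockout tumours, against 9.07, 9.23 and 8.98 in wild type tumours, and a single knockout value, that of replicate 2, reached into the wild type range. Its difference was -0.23 (SE 0.13, limma adjusted p = 0.481). Mybl2 is the only member with 2 array features, and these values are from the brighter one. With the mean of both features its difference was -0.32 (limma adjusted p = 0.201), and the count of members without overlap was 11 rather than 10. Top2a, the topoisomerase that untangles sister chromatids, had levels of 11.44, 11.55 and 11.34 in knockout tumours, against 11.49, 11.64 and 11.76 in wild type tumours. The groups overlapped, with a difference of -0.19 (SE 0.11, limma adjusted p = 0.499).

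Mitotic entry is set by Cdk1 with its cyclins and by the CDC25 phosphatases that activate it. Cdk1 had log2 levels of 10.01, 9.998 and 9.88 in knockout tumours, against 10.08, 10.33 and 10.23 in wild type tumours. No knockout value reached the wild type range, the nearest pair being knockout replicate 1 and wild type replicate 1, and the difference was -0.25 (SE 0.10, limma adjusted p = 0.329). The cyclin Ccnb2 had levels of 10.53, 10.57 and 10.18 in knockout tumours, against 10.53, 10.75 and 10.53 in wild type tumours, with overlapping groups and a difference of -0.18 (SE 0.13, limma adjusted p = 0.591). Cdc25b differed by -0.17 with overlapping groups. Cdc25c was the only member with a positive difference, 0.03 (SE 0.12, limma adjusted p = 0.934), and it was negative once array medians were centred. Its levels were 9.15, 9.19 and 8.998 in knockout tumours, against 8.90, 9.07 and 9.27 in wild type tumours, and the lowest value was that of wild type replicate 1.

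Among mitotic kinases, Nek2, which acts in centrosome separation, had log2 levels of 9.54, 9.76 and 9.54 in knockout tumours, against 9.92, 9.87 and 9.79 in wild type tumours. The groups did not overlap, and wild type replicate 1 was the highest array, unlike in most members. The difference was -0.25 (SE 0.10, limma adjusted p = 0.329). Plk1, a kinase needed from mitotic entry to cytokinesis, had levels of 10.68, 10.54 and 10.16 in knockout tumours, against 10.77, 10.65 and 10.69 in wild type tumours, of which knockout replicate 1 lay within the wild type range, and differed by -0.24 (SE 0.14, limma adjusted p = 0.494). Aurka, the Aurora kinase of the spindle poles, had levels of 10.07, 10.08 and 9.90 in knockout tumours, against 10.02, 9.94 and 10.33 in wild type tumours. The groups overlapped widely, with a difference of -0.08 and an interval of -0.37 to 0.21. Plk4, which starts centriole duplication, differed by -0.14.

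The chromosomal passenger complex, which corrects faulty kinetochore attachments and later directs cytokinesis, held the member with the smallest p. Its scaffold Incenp had log2 levels of 9.48, 9.36 and 9.40 in knockout tumours, against 9.81, 9.89 and 9.75 in wild type tumours. The groups were well apart, each with a narrow spread, and the order of the arrays was not that of most members, since knockout replicate 2 was the lowest. The difference was -0.40 (SE 0.09, limma adjusted p = 0.148), a level 24.4% lower with an interval of -0.61 to -0.20. Aurkb, the kinase of the complex, had levels of 10.38, 10.46 and 9.99 in knockout tumours, against 10.53, 10.79 and 10.55 in wild type tumours. These groups did not overlap either, knockout replicate 3 lay far below the rest, and the difference was -0.34 (SE 0.14, limma adjusted p = 0.348). Cdca8, which encodes borealin, had levels of 9.38, 9.28 and 8.91 in knockout tumours, against 9.35, 9.63 and 9.59 in wild type tumours, with wild type replicate 1 inside the knockout range and a difference of -0.33 (SE 0.14, limma adjusted p = 0.365). Birc5, which encodes survivin, had levels of 8.80, 8.78 and 8.50 in knockout tumours, against 8.70, 8.82 and 8.87 in wild type tumours. Its groups overlapped, with a difference of -0.10 (SE 0.11, limma adjusted p = 0.74), so that the complex spanned differences of -0.40 to -0.10. Whether these members differ from each other was not tested.

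**Figure D3:**
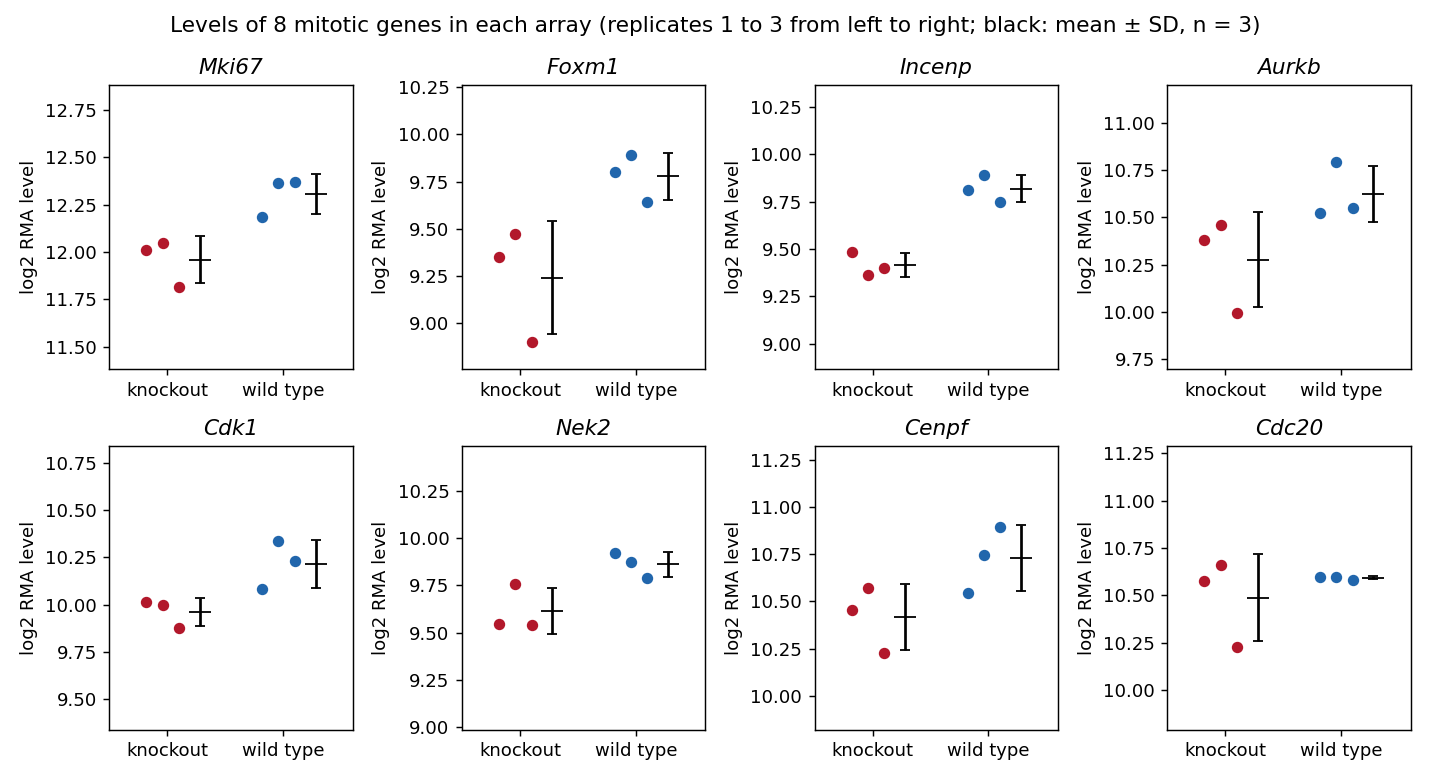
Log2 RMA levels of 8 member genes in each array, with knockout tumours on the left of each panel and wild type tumours on the right, replicates 1 to 3 from left to right. Points are arrays, black bars are the mean and SD of 3 arrays, and each vertical axis spans the same 1.5 log2 units. In Mki67, Foxm1, Incenp, Aurkb, Cdk1 and Nek2 the groups do not overlap, while in Cdc20 only knockout replicate 3 stands apart.

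All 10 centromere and kinetochore genes had negative differences, from -0.31 to -0.06 with a median of -0.13. In this group 1 gene was lower at an unadjusted p under 0.05, as were 6.51% of all genes. That gene, Cenpf, a coiled-coil protein of the outer kinetochore, had log2 levels of 10.45, 10.57 and 10.23 in knockout tumours, against 10.54, 10.75 and 10.89 in wild type tumours. Knockout replicate 2 lay just above wild type replicate 1, so the groups overlapped, and the difference was -0.31 (SE 0.13, limma adjusted p = 0.347). Cenpa, the histone variant that marks centromeres, differed by -0.23, the kinetochore motor Cenpe by -0.06, and the constitutive centromere genes Cenph, Cenpi and Cenpk differed by -0.11, -0.12 and -0.12. Of the NDC80 complex, which binds microtubules, Nuf2 had groups that did not overlap, with a difference of -0.16 (SE 0.09). Ndc80, Spc25 and Spc24 differed by -0.17, -0.14 and -0.08 with overlapping groups. Spc24 had a wide 95% interval, -0.58 to 0.42, with wild type replicate 1 the lowest array and wild type replicate 3 the highest.

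The 5 spindle checkpoint genes had negative differences with a median of -0.15, and in each the groups overlapped. Bub1, a kinase that recruits checkpoint proteins to kinetochores, had log2 levels of 9.93, 10.03 and 9.72 in knockout tumours, against 9.88, 10.09 and 10.17 in wild type tumours. Knockout replicates 1 and 2 lay above wild type replicate 1, and the difference was -0.15 (SE 0.12, limma adjusted p = 0.625). The checkpoint kinase Ttk and the checkpoint protein Bub1b differed by -0.18 and -0.17. Mad2l1, which binds and restrains Cdc20, had levels of 10.09, 10.13 and 9.97 in knockout tumours, against 10.13, 10.12 and 10.03 in wild type tumours. These values lay within a narrow band in both groups, with a difference of -0.03 and an interval of -0.24 to 0.18. Bub3 differed by -0.04, with an interval of -0.24 to 0.15, the narrowest interval of the members.

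The 10 kinesins, motor proteins that build and move the spindle, had negative differences from -0.22 to -0.02 with a median of -0.11. None, 0 of 10, was lower at an unadjusted p under 0.05, against 6.51% of all genes. Kif11, which pushes the spindle poles apart, differed by -0.22 (SE 0.14), the chromokinesins Kif4 and Kif22 by -0.21 and -0.15, and Kif14, a cytokinesis kinesin, by -0.20. Kif4 is X-linked, as is Cenpi. Kif15, Kif18a, Kif20b and Kif23 differed by -0.14, -0.09, -0.09 and -0.07. Kif2c, a microtubule depolymerase, had log2 levels of 10.64, 10.77 and 10.46 in knockout tumours, against 10.55, 10.65 and 10.75 in wild type tumours. Kif20a, a midzone kinesin, had levels of 10.51, 10.55 and 10.39 in knockout tumours, against 10.37, 10.55 and 10.61 in wild type tumours. In both genes the groups overlapped, with differences of -0.03 and -0.02 whose sign turned when the arrays were quantile normalised again, and with intervals of -0.29 to 0.23 and -0.26 to 0.21.

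Of the spindle assembly factors, Aspm, a spindle pole protein whose loss causes microcephaly in humans, had log2 levels of 9.94, 10.15 and 9.75 in knockout tumours, against 9.98, 10.34 and 10.32 in wild type tumours. Knockout replicate 2 lay above wild type replicate 1, and the difference was -0.27 (SE 0.14, limma adjusted p = 0.461). Hmmr and Tpx2, the activator of Aurora A, differed by -0.15 and -0.13. In the group of the midzone and cytokinesis, Racgap1, part of centralspindlin with Kif23, had groups that did not overlap and a difference of -0.19 (SE 0.11). The RhoA exchange factor Ect2 and the microtubule bundler Prc1 differed by -0.08 and -0.07. Anln, which encodes the contractile ring protein anillin, had levels of 10.46, 10.40 and 10.24 in knockout tumours, against 10.25, 10.37 and 10.60 in wild type tumours. The lowest and next lowest values belonged to knockout replicate 3 and wild type replicate 1, and the difference, -0.04 with an interval of -0.31 to 0.24, had the opposite sign after quantile normalisation.

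The 5 genes of anaphase onset and sister cohesion had differences from -0.48 to -0.09 with a median of -0.21. Pttg1, which encodes securin, the inhibitor of separase, had log2 levels of 8.63, 8.74 and 8.02 in knockout tumours, against 8.61, 8.98 and 9.21 in wild type tumours. Knockout replicate 3 was the lowest array and wild type replicate 1 lay below knockout replicates 1 and 2, so that the difference of -0.48 (SE 0.22, limma adjusted p = 0.392) came with an interval of -0.98 to 0.03, the widest of the members. Espl1, separase itself, had groups that did not overlap and a difference of -0.21 (SE 0.12). Cdc20, the activator of the anaphase-promoting complex, had levels of 10.58, 10.66 and 10.23 in knockout tumours, against 10.60, 10.60 and 10.58 in wild type tumours. The wild type values were nearly equal and 1 of the knockout values lay above them, with a difference of -0.10 (SE 0.12, limma adjusted p = 0.768). Ube2c, the ubiquitin-conjugating enzyme of that complex, differed by -0.21, and Sgo1, which protects centromeric cohesion, by -0.09. Of the condensin genes, Ncapd2 had levels of 10.40, 10.79 and 10.19 in knockout tumours, against 10.91, 10.70 and 10.82 in wild type tumours. Knockout replicate 2 lay within the wild type range, and the difference was -0.35 (SE 0.16, limma adjusted p = 0.372). Ncaph had groups that did not overlap, with a difference of -0.16 (SE 0.10), and Smc2 and Smc4 differed by -0.20 and -0.09.

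**Figure D4:**
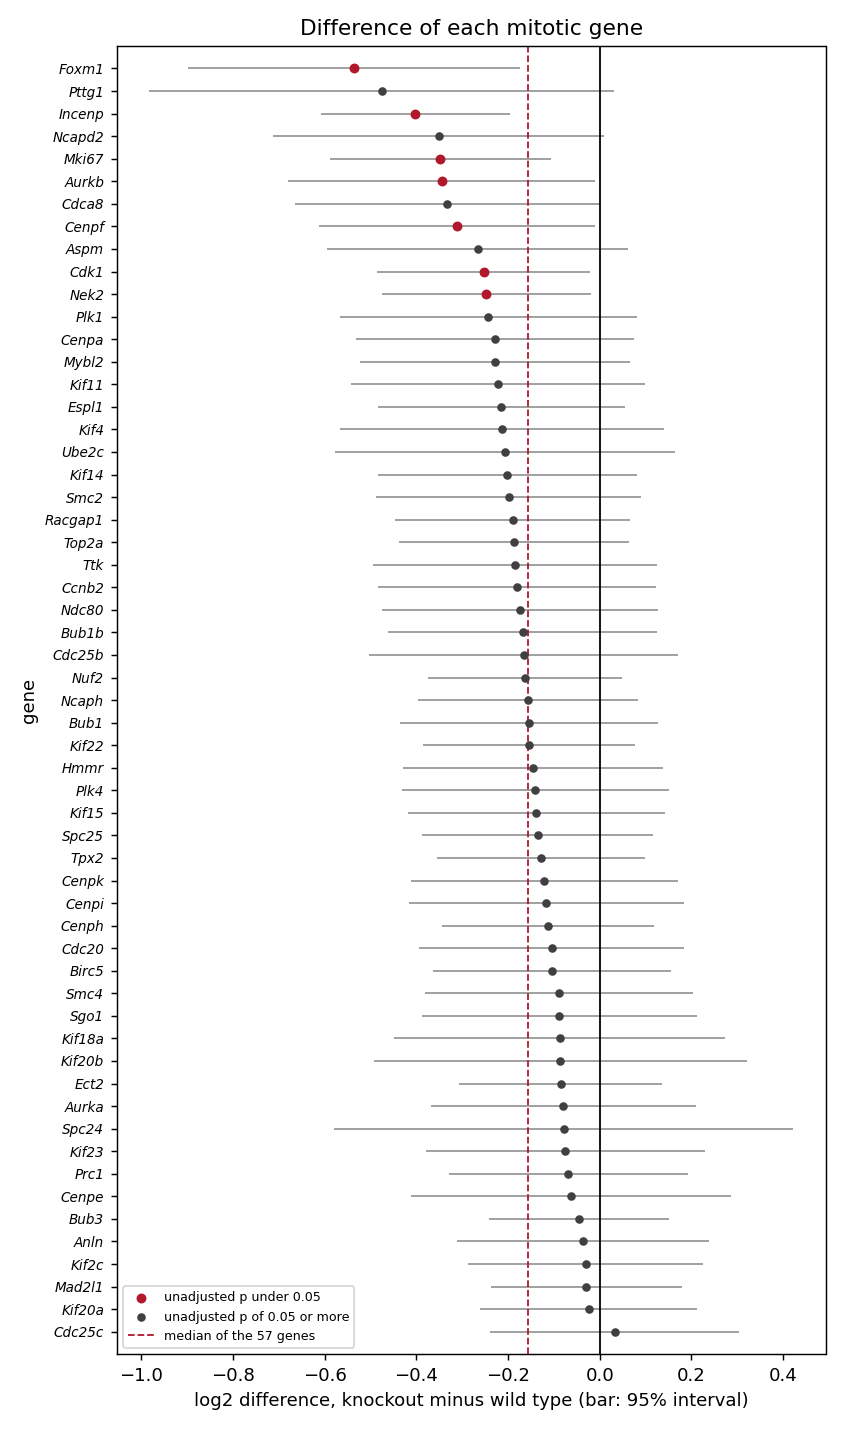
Log2 difference, knockout minus wild type, of each of the 57 member genes in order of size, with bars for the 95% interval from limma. Red points are the 7 genes with an unadjusted p under 0.05, the dashed line is the median of -0.16, and 0 genes passed an adjusted p of 0.05. All points but that of Cdc25c lie left of 0, and 50 of the 57 intervals include 0.

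The 95% intervals bounded the difference between the groups on these arrays for each gene singly, and not for all members jointly. They do not cover a shift of most genes together, which RMA would hide, and they do not separate genotype from sex. The half-width of the 95% interval had a median of 0.29 and ran from 0.20 to 0.51, and 50 of 57 intervals included 0. For all 57 members the interval excluded a level lower by 1 log2 unit or more in knockout tumours. In 40 members the whole interval lay between -0.5 and 0.5. In 18 members the difference was smaller in size than the SD of each group. The exact two-sided permutation test over the arrays gave p = 0.1 for the 10 members without overlap, the smallest p that 3 against 3 arrays allow.

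The differences were then set beside the promoter elements. The 36 with a homology region match had a median of -0.18 and the 13 without one had a median of -0.12. All 49 genes with a window were negative. Foxm1, with the most negative difference of the members, and Cdc25c, with the only positive one, had no window and belong to neither class. With CCAAT the median was -0.18 in 36 genes, and without it -0.14 in 13. The ranges overlapped, from -0.35 to -0.03 with the homology region and from -0.48 to -0.03 without it, and the difference between these classes was not tested.

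Other genes of the same machinery were taken from lists drawn up by function. No list held a gene past an adjusted p of 0.05, against 0.207% of all genes. Over all genes 49.1% of differences were negative, and 6.51% were lower and 7.24% higher at an unadjusted p under 0.05. Of 15 other mitotic kinases and cyclins 12 had negative differences with a median of -0.18. In this list 1 gene was lower at an unadjusted p under 0.05 (6.67%, near the 6.51% of all genes). That gene, Pbk, a mitotic kinase, had log2 levels of 10.20, 10.19 and 10.03 in knockout tumours, against 10.64, 10.72 and 10.67 in wild type tumours. The groups did not overlap, and the difference was -0.54 (SE 0.09, limma adjusted p = 0.0871). Ccna2 differed by -0.19. Of 10 other cytokinesis genes 9 were negative with a median of -0.17. At an unadjusted p under 0.05, 2 were lower (20%), Arhgap11a at -0.32 and Cit at -0.28. Of 18 cohesin genes and further condensin genes 15 were negative with a median of -0.10. There 4 were lower (22.2%) and 1 higher at an unadjusted p under 0.05, with the cohesin acetyltransferase Esco2 at -0.47 and the X-linked deacetylase Hdac8 at 0.40. Of 27 further centromere and kinetochore genes 19 were negative with a median of -0.07, with the smallest p in Cenpp at -0.28 and Ska1 at -0.25. The 36 other spindle and centrosome genes had a median of -0.05 with 22 negative, and those with the smallest p were Ckap2 at -0.46 and the X-linked Haus7 at 0.33. The anaphase-promoting complex with its regulators had a median of 0.01 with 8 of 17 negative, beside 0.00 and 49.1% over all genes. When array medians were centred, which lowers every gene alike, the list had a median of -0.03, beside -0.04 over all genes. Its activator Fzr1 and the ubiquitin-conjugating enzyme Ube2s lay at -0.40 and -0.34, the 2 of the list (11.8%) that were lower at an unadjusted p under 0.05. Among 17 regulators of the MuvB, DREAM and NF-Y group 13 were negative with a median of -0.05, and E2f8 and Nfyb lay at -0.41 and -0.25.

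Earlier steps of the cell cycle were set beside the mitotic genes. Of 47 DNA replication and S phase genes 39 had negative differences with a median of -0.09. Of these 47, 5 were lower at an unadjusted p under 0.05 (10.6%, against 6.51% of all genes and 8.84% of the brighter 50%). E2f1 and the licensing factor Cdt1 lay at -0.40 and -0.62. The median deviation of this list was -0.04, 0.01 and -0.14 in knockout replicates 1 to 3, against -0.05, 0.10 and 0.07 in wild type replicates 1 to 3. Knockout replicate 3 and wild type replicate 1 were again the lowest arrays, over a narrower range. Of 6 genes of the D cyclin, CDK4/6 and RB group 4 were negative with a median of -0.12, and Ccnd2 and Ccnd3 lay at -0.69 and 0.41. Whether the lists differ from each other was not tested.

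Markers of the cell types that the tumours could hold were measured in the same arrays. For comparison, 6.51% of all genes were lower and 7.24% higher at an unadjusted p under 0.05. In 9.43% of all genes the groups did not overlap, with knockout tumours lower. Granule neuron progenitor genes had a median difference of -0.32, with 11 of 15 negative. At that p, 9 were lower (60%) and 2 higher. Those with the smallest p were Insm1 at -0.51 and Zic5 at -0.50. Their median deviations, -0.11, -0.07 and -0.25 in knockout replicates 1 to 3, against 0.16, 0.20 and 0.09 in wild type replicates 1 to 3, were lowest in knockout replicate 3, and the groups did not overlap. Of 19 microglia and macrophage markers 17 were negative with a median of -0.31, and 10 were lower (52.6%) and 0 higher at an unadjusted p under 0.05. In 8 of them (42.1%) the groups did not overlap, with knockout tumours lower. Their deviations were -0.14, 0.05 and -0.37 in knockout tumours, against 0.24, 0.03 and 0.20 in wild type tumours. The log2 of their summed level ran from 13.36 to 13.77 in knockout tumours and from 13.79 to 14.003 in wild type tumours. Fcgr3 and Ctss, with the smallest p of these markers, lay at -0.79 and -0.57. Of 13 Purkinje cell and inhibitory neuron markers 12 were positive with a median of 0.42, with 6 higher and 1 lower at an unadjusted p under 0.05. The lower one, Lhx1 at -0.49, had the smallest p of the list and groups that did not overlap, followed by Gad1 at 0.47. The summed level of the list ran from 11.44 to 12.43 in knockout tumours and from 11.26 to 11.81 in wild type tumours. Of 18 astrocyte and Bergmann glia markers 14 were positive with a median of 0.37, with 4 higher and 0 lower at that p, and the summed level ran from 14.85 to 14.97 in knockout tumours and from 14.23 to 15.04 in wild type tumours. Purkinje markers were highest in knockout replicate 3, at 0.36, and lowest in wild type replicate 1, at -0.33. Their dimmest gene, Skor2, had a mean log2 level of 4.10, below the highest level of an absent sex-linked gene, 5.74. The dimmest oligodendrocyte gene, Opalin, at 5.67, also lay below that level, and the dimmest astrocyte gene, Gjb6, at 5.97, lay just above it. Maturing granule neuron genes had a median of 0.09 with 10 of 19 positive, with Neurod1 at -1.13 and Cbln3 at 2.29. Of these 19, 2 were lower (10.5%) and 5 higher at an unadjusted p under 0.05. Cbln3 varied widely, with levels of 10.48, 8.17 and 10.38 in knockout tumours, against 6.80, 6.99 and 8.36 in wild type tumours. Its groups overlapped. Oligodendrocyte lineage, endothelial and pericyte, and fibroblast and meningeal markers had medians of -0.17, -0.01 and 0.09 over 13, 16 and 12 genes. In the same order 4 (30.8%), 3 (18.8%) and 1 (8.33%) were lower at an unadjusted p under 0.05, and 1, 2 and 3 were higher. The genes with the smallest p were Pdgfra at -0.45 and Sox10 at -0.69 in the first list. In the second they were Tek at 0.50 and Vwf at -0.35, and in the third Igf2 at 1.39 and Foxc1 at -0.45. No detection calls were used, and the part of these cells in the mitotic differences was not tested.

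**Figure D5:**
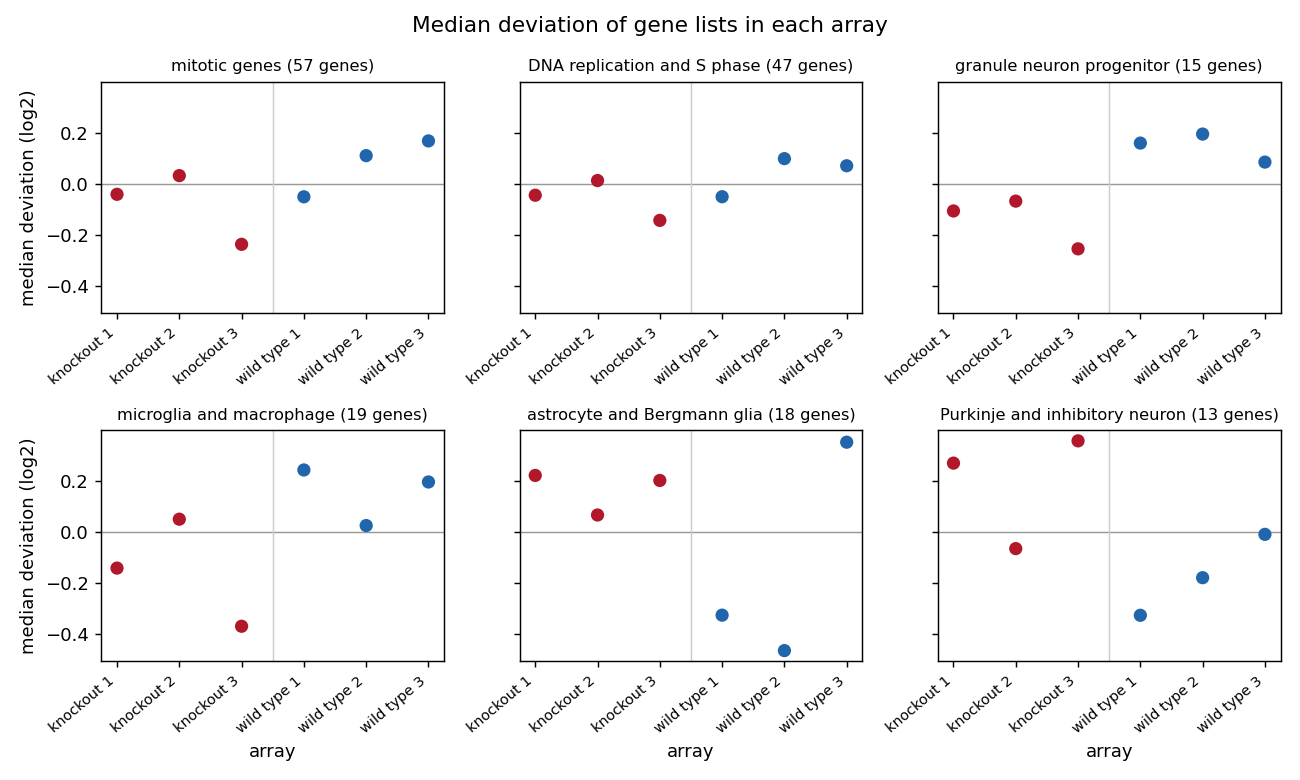
Median deviation of 6 gene lists in each array, in log2 units, where each gene is measured from its own mean over the 6 arrays. Points are arrays, red for knockout tumours on the left and blue for wild type tumours on the right of each panel. Mitotic genes are lowest in knockout replicate 3, at -0.24, where progenitor and microglia genes are also lowest and Purkinje and inhibitory neuron markers are highest. Among wild type tumours, replicate 1 is lowest in mitotic genes, at -0.05, but highest in microglia genes, at 0.24, and lowest in Purkinje markers, at -0.33. Wild type replicate 3 is highest of the 6 arrays in mitotic genes, at 0.17, and in astrocyte and Bergmann glia markers, at 0.35.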

How the data were processed

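RNA of 6 tumours was measured on Affymetrix whole-transcript arrays, grouped here by sample title. Per the submitters' processing notes, the deposited log2 values come from RMA as run in oligo; no versions are known here. RMA puts arrays on a common scale, which would hide a shift of most genes together. Of 41345 features, the platform annotation assigns 1 symbol to 23521; for each gene the feature with the highest mean was kept, giving 22180 genes with no filter on level. Knockout and wild type tumours were compared in limma 3.58.1 (R 4.3.3) by lmFit and eBayes with no trend, two-sided, and p-values were adjusted by Benjamini-Hochberg over all genes with a threshold of 0.05. In simulated tables of 22180 genes with 3 arrays per group, genes shifted by 0.5, 1 and 2 log2 units were recovered in 22%, 76% and 98% of cases, and 4.60% of calls were false. The noise was drawn independently for each gene, so variation shared between genes of an array was not simulated. The shifted genes were picked at random, and no shift as small as the members' median of -0.16 was tried. The number of arrays limits the precision. Per-array list values are the median, over genes, of the deviation from the gene's own mean, and summed levels are log2 of the sum of linear values. Promoters are RefSeq windows on GRCm38.p6, whose genes were matched by symbol. The members and lists were chosen with earlier results of these data known. Values in each array are given for members with an unadjusted p under 0.05, the 10 most negative and 5 most positive differences, and Mki67, Top2a, Foxm1, Mybl2, Cdk1, Ccnb2, Aurka, Aurkb, Plk1, Cdc20, Birc5 and Bub1; from each other list, which held no called gene, the 2 genes lowest in p are named. Alternatives covered array scaling, dim genes, the variance model, array weights, features per gene, a replicate block, the threshold and leaving out each array.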

Additional observations from a re-analysis of the deposited data

How the results depend on the processing

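No mitotic gene passed an adjusted p of 0.05 under any alternative run, and 0 did at 0.1 in the fit reported. Incenp was under 0.1 without the dimmest 25% (limma adjusted p = 0.0932) or 50% of genes (0.0748) and with a mean-variance trend (0.0857). The median difference was negative in each, from -0.22 to -0.07 when 1 array was left out, with 44 to 57 members negative. Leaving out 1 array gave 3 to 11 members lower at an unadjusted p under 0.05 (5.26% to 19.3%, against 4.57% to 8.34% of all genes). It gave 10 to 32 without overlap (17.5% to 56.1%, against 12.7% to 17.4%), which is also more frequent by construction with fewer arrays. Under the other alternatives, 502 of 513 results for single members kept their sign and their side of the threshold and 11 turned sign. Quantile normalisation gave 0.023 for Kif2c, 0.018 for Kif20a, 0.0011 for Mad2l1 and 0.0020 for Anln, and centred medians gave -0.0097 for Cdc25c. Array weights gave 0.013 for Kif2c, 0.011 for Kif20a, 0.015 for Kif20b, 0.018 for Cenpe, 0.043 for Spc24 and 0.021 for Anln. The cause was not tested. Leaving out 1 array turned the sign of 15 members, with ranges of -0.16 to 0.038 for Aurka, -0.10 to 0.052 for Kif2c, -0.21 to 0.036 for Kif18a, -0.097 to 0.027 for Kif20a, -0.22 to 0.098 for Kif20b, -0.16 to 0.027 for Kif23, -0.18 to 0.066 for Cenpe, -0.19 to 0.027 for Cdc20, -0.056 to 0.12 for Cdc25c, -0.061 to 0.017 for Mad2l1, -0.30 to 0.11 for Spc24, -0.13 to 0.016 for Prc1, -0.11 to 0.060 for Anln, -0.19 to 0.0085 for Sgo1 and -0.15 to 0.0076 for Smc4. The log2 difference of Crebbp, -0.50, passed without the dimmest 50% of genes (limma adjusted p = 0.0486) and with a mean-variance trend (0.0263). With the replicate number as a block 5 members were lower at an unadjusted p under 0.05 (8.77%, against 6.72% of all genes), with a median of -0.16. Array weights likewise gave 5 lower members (8.77%, against 7.48% of all genes). Same-numbered tumours of the groups did not deviate together over all genes (r = -0.029, 0.052 and 0.0996), and not every tumour correlated best with its own number, so the numbers were not taken as pairs. With 3 arrays per group, the members' median difference of -0.16 was smaller in size than the median interval half-width of 0.29. Most single differences of the members were thus not resolved by these arrays, and 50 of 57 intervals included 0.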
